A study of Mus musculus with 8 samples.

Results

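Sorted ureteric bud cells of wild-type newborn mice were profiled on 4 arrays, and the description here covers their expression levels only. These are the 4 wild-type (WT) samples among the 8 samples of the series. The other 4, in which Dot1 had been knocked out, were not analysed here, and no comparison between genotypes was made. Each WT sample came from kidneys of C57BL/6 mice at postnatal day 0 and carries the genotype label control. Cells were collected by flow sorting for GFP. No source used here says what drives the GFP in these mice. The labels number the samples 1 to 4 and the series calls them biological replicates, without naming animals, litters or pools. The arrays are called WT1, WT2, WT3 and WT4 below.

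The ureteric bud grows out of the nephric duct as an epithelial tube, branches within the kidney and becomes the collecting duct system and the lining of the renal pelvis. At its tips, Ret and its co-receptor Gfra1 receive GDNF from the surrounding nephron progenitors, and the transcription factors Etv4 and Etv5 act downstream of Ret. The trunk behind the tips turns into collecting duct, whose principal cells carry water and sodium channels and whose intercalated cells handle acid and base. In the newborn mouse kidney tips are still branching while the inner ducts already differentiate.

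Each array carried RNA of 1 WT sample in the red dye Cy5, made from 0.5 µg of total RNA, and RNA of WT replicate 3 in the green dye Cy3. A level is the median Cy5 intensity of a spot minus its local background, scaled so that all arrays share the same 75th percentile of probe levels. Before scaling that percentile lay between 508 and 691 array units and was highest on WT1. Between 52.4% and 56.2% of the spots were marked as well above background by the scanner software, again with WT1 highest. Each array held 308 negative-control spots, of which 0 or 1 were so marked, and no spot was saturated. The brightness of a probe depends on its sequence as well as on the amount of RNA, so differences are read over the 4 arrays for the same probe. A percentile, a rank among genes or the word low gives the place of a probe's brightness and not of the amount of RNA, and a sum over a list is weighted towards its bright probes.

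All 8 genes that mark the ureteric bud were well above background on all 4 arrays. Hoxb7, a homeobox gene of the nephric duct and its derivatives, had levels of 12969, 12698, 13330 and 12934 on WT1 to WT4, a mean of 12983 ± 261 (SD, n = 4). The arrays differed by no more than 1.05-fold, a log2 range (highest minus lowest array) of 0.07. Gata3, a transcription factor of the nephric duct, had 8700, 8486, 8305 and 11695, so WT4 lay above 3 nearly level arrays. Its log2 range was 0.49 with WT4 and 0.07 without it. Pax2, which the duct needs to form, had 233, 298, 240.1 and 284, and its second probe had a mean level of 138.

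Cdh16, a cadherin of kidney epithelia, had 107945, 114706, 136394 and 120525, at the 99.5th percentile of all named genes. Krt8, a keratin of simple epithelia, had 14636, 10630, 8432 and 15970, with WT1 and WT4 above WT2 and WT3. Ret, the GDNF receptor of the tips, had 4325, 2922, 2949 and 2442. WT1 was highest, and the log2 range fell from 0.82 to 0.27 without it. Calb1, a calcium-binding protein of the tubes, had 762, 429, 706 and 523, a log2 range of 0.83. Aqp2, the vasopressin-regulated water channel of principal cells, had 3249, 10770, 7032 and 8148. WT1 was 3.31-fold below WT2, while the Cy3 levels of the same probe on the 4 arrays differed by a log2 range of 0.08. Without WT1 the range of Aqp2 was 0.62.

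**Figure D1:**
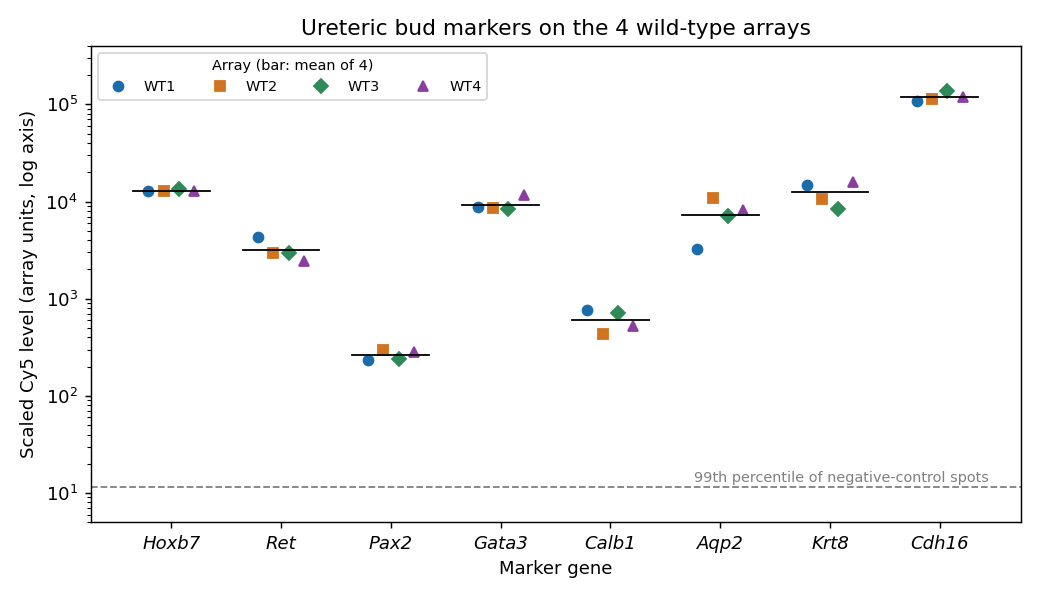
Scaled Cy5 levels of 8 ureteric bud markers (log axis) on the 4 WT arrays, with 1 symbol per array and a bar at the mean; the dashed line is the highest 99th percentile of negative-control spots, 11.5 array units. The 4 symbols of Hoxb7 nearly coincide, and the WT1 symbol of Aqp2 lies below the other arrays.

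Of 20887 named genes, 14004 (67%) had a probe well above background on all 4 arrays, 5609 (26.9%) had none on any array, and 1274 lay between. Among genes present on all arrays the level ran from 59.0 at the 5th percentile over a median of 1087 to 18967 at the 95th. No gene marked on no array had a mean level above 26.6. With the 99th percentile of negative-control spots in place of the scanner's mark, 14857 genes were present on all arrays and 3812 on none. Probes named by transcript class differed: 68.3% of 26585 probes for coding RefSeq transcripts were well above background on all arrays. The share was 33.4% of 1400 probes for non-coding RefSeq transcripts and 25.3% of 16194 probes named only by a position in the genome.

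The 20 brightest named genes had mean levels between 255085 and 316582, and 9 of them encode ribosomal proteins. Rpl37a, a protein of the large ribosomal subunit, had 288445, 350660, 313753 and 313471. Actb, cytoplasmic actin, had 251058, 302551, 262147 and 289570. WT2 was highest for both genes. Several bright entries depended on 1 probe. Among the 20 brightest, 13 genes had another probe, and for 6 of these the weakest probe was below 1% of the brightest. Slc10a1, a bile acid transporter of the liver, had a mean level of 278244 at one probe and 9.86 at the other. Elk1, a transcription factor, had 287105 at one probe and 54.9 at the other. Over all 5512 genes with more than 1 probe, 594 (10.8%) had a probe present on all arrays and another present on none.

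The ureteric lists were present almost entirely. Of 117 measured genes of the ureteric lists, counted once, 112 (95.7%) were well above background on all arrays, against 67% of all named genes. All 20 genes of the bud tip list, all 20 transcription factors of the ureteric lineage and all 25 genes of the trunk and collecting duct epithelium were present. Genes of other kidney compartments were present about as often: of 108 measured genes of progenitors, stroma, vascular muscle, podocytes, proximal tubule and distal tubule, 103 (95.4%) were on all arrays. The ureteric lists were thus not set apart from the other kidney lists by the share of genes present.

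**Figure D2:**
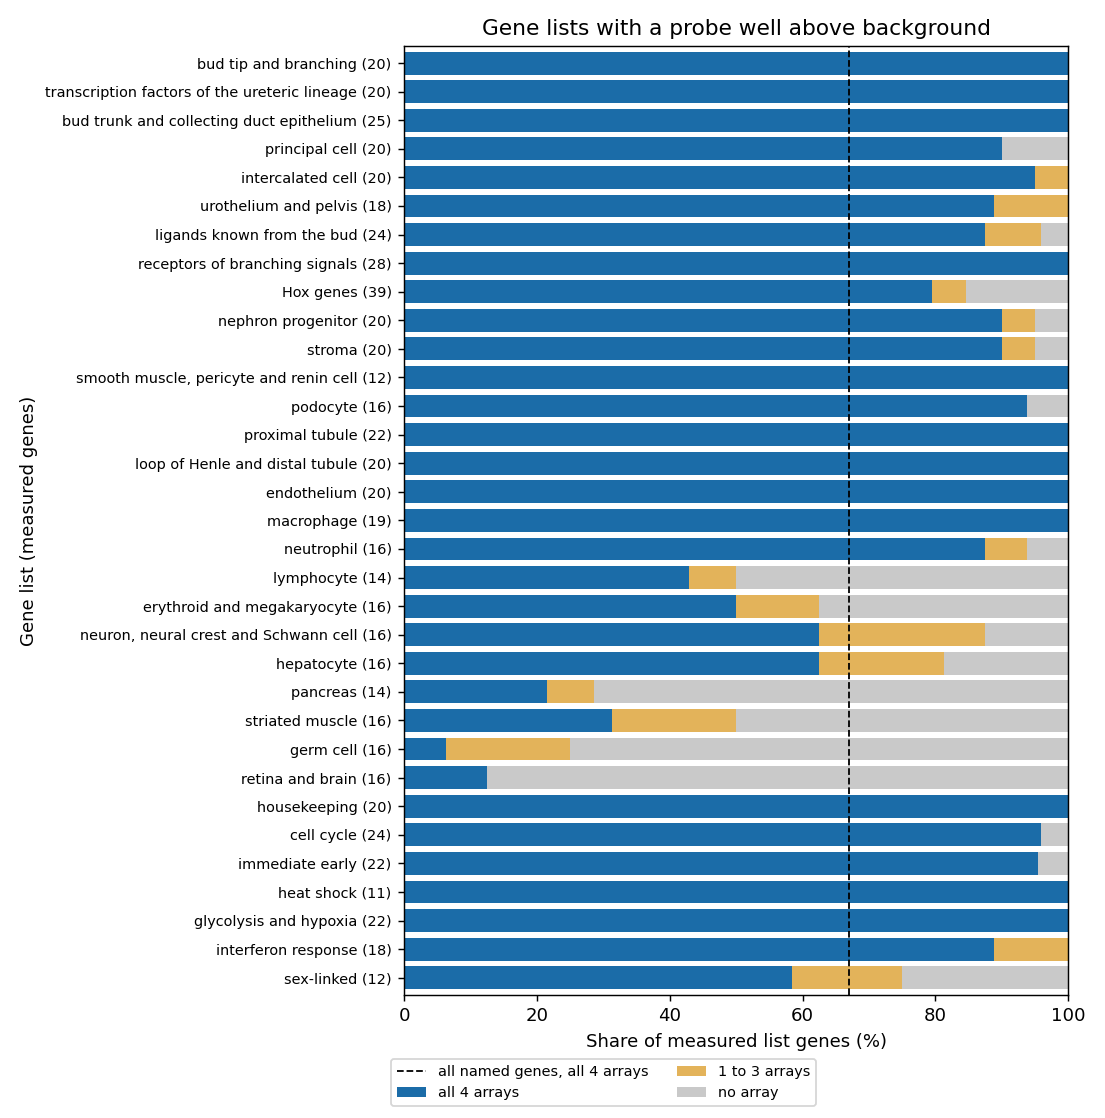
Share of measured genes in each of 33 lists that were well above background on all 4 arrays, on 1 to 3 arrays or on no array (horizontal axis, %); the number of measured genes stands in brackets. Most kidney lists reach past the dashed line at 67% for all named genes. The lists of hepatocytes, pancreas, striated muscle, germ cells, and retina and brain stay below it. So do the lists of lymphocytes, of erythroid cells and megakaryocytes, of neurons, neural crest and Schwann cells, and of sex-linked genes.

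Genes of other organs were absent more often. Of 78 measured genes of the liver, pancreas, striated muscle, germ cell and brain lists, 21 (26.9%) were present on all arrays and 47 (60.3%) on none, against 26.9% of all named genes on none. Ins1 (insulin), Gcg (glucagon), Ckm (muscle creatine kinase), Myod1 (a regulator of muscle fate), and Ddx4 and Dazl (germ cell RNA-binding proteins) were on no array. Their mean levels ran from -6.71 for Ckm to 13.8 for Ins1. The hepatocyte list differed from the other lists of this group, with 10 of 16 genes (62.5%) on all arrays and 3 on none. Alb, serum albumin, was among those on no array, with a mean level of 10.3. Afp, alpha-fetoprotein, was present with 8388, 4128, 10655 and 6866, where WT2 was lowest. Mbp, named for myelin basic protein, was also present at 3 probes, with a mean level of 3467 ± 169.5 (SD, n = 4) at the brightest and 418 at the next.

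The tip list had the fewest wide ranges among the ureteric lists. Of 19 tip genes measured in both dyes, 0 had a 2-fold range over the arrays, against 10.1% of the 13076 genes so measured. This is a difference of few genes. The median log2 range of the 19 was 0.438, above the 0.338 of all genes so measured. The other tip gene, Sox8, was not present in Cy3 on all arrays and had a 2.86-fold range in Cy5. Etv5, downstream of Ret, had 34325, 32489, 28203 and 26115, highest on WT1 as was Ret. Etv4 had 28750, 30392, 27681 and 25634, highest on WT2. Bmp7, a ligand made by the bud and by nephron progenitors, had 21174, 21836, 22125 and 17515, lowest on WT4. Summed over the 20 genes, the list level was 187447, 180805, 164843 and 156335, a 1.199-fold difference between WT1 and WT4. Sox8, a transcription factor of the tip, was present on all arrays with low levels of 127, 74.8, 44.6 and 74.1, highest on WT1 and lowest on WT3.

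Receptors and ligands of branching signals were mostly present. All 28 measured receptors were present, against 67% of all named genes. A 2-fold range was seen for 1 of the 27 present in both dyes, against 10.1% of all genes, a difference of few genes. Fgfr1, an FGF receptor, had 13939, 19375, 14342 and 11684, and Lrp6, a WNT co-receptor, had 11564, 12805, 13661 and 10781. That receptor was Itga8, the integrin through which progenitors answer the duct, with 1030.3, 1587, 437 and 589. It also stands in the list of nephron progenitors, and it was lowest on WT3. Agtr2, the type 2 angiotensin receptor, was not present in Cy3 on all arrays and had 129, 143, 34.7 and 80.0 in Cy5, a 4.14-fold range with WT3 lowest. Of 24 ligands 21 were present on all arrays (67% of all named genes). A 2-fold range was seen for 2 of 21, a share close to that of all genes. These were Ntn1, a guidance factor, with a 2.68-fold range, and Pdgfb, a growth factor, with a 2.05-fold range. Pdgfa, a growth factor, had 22183, 25803, 34988 and 19689, highest on WT3. Shh, the hedgehog ligand of the distal duct and pelvis, was well above background on 3 arrays only, with 64.9, 33.9, 11.9 and 37.8. WT3 was the array where it was not. Lif, a cytokine that induces nephrons, was on no array.

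Hox genes of most positions were present and those of paralogue group 13 were not. Of 39 measured genes 31 (79.5%) were present on all arrays, against 67% of all named genes, and Hoxc5 and Hoxc8 were on 3. On no array were Hoxa13, Hoxb13, Hoxc13 and Hoxd13, the 4 genes of paralogue group 13, with mean levels from -3.10 for Hoxb13 to 2.13 for Hoxa13. Hoxc12 and Hoxb1 were also on none, which makes 6 of 39 genes, against 26.9% of all named genes. Hoxd12 was on all arrays, with a mean level of 98.0. Hoxb6 had 12964, 13853, 14999 and 15172, and Hoxd8 had 5496, 5199, 7996 and 5309. Hoxb8 had 10274, 5802, 5819 and 5420, with WT1 1.90-fold above WT4. On WT4, 18 of the 31 genes were at their lowest, against 26.3% of all genes.

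The differentiated cells of the collecting duct were represented and varied more. Of 20 principal cell genes 18 were present, against 67% of all named genes, and 8 of 18 had a 2-fold range, against 10.1% of all genes. Fxyd2, a subunit of the sodium pump, had 196342, 180789, 276974 and 158528, although the Cy3 levels of this probe also varied by a log2 range of 0.82. Aqp3, the water channel of the basolateral side, had 10043, 12309, 11023 and 10933. Fxyd4, another pump regulator of the collecting duct, had 3563, 13098, 9047 and 8662, lowest on WT1 like Aqp2. Avpr2, the vasopressin receptor, had 753, 1344, 1455 and 1544, again lowest on WT1. Scnn1a, the alpha subunit of the epithelial sodium channel, had 3325, 2429, 7072 and 3778, whereas Scnn1g, the gamma subunit, was on no array with a mean level of -1.66. The median log2 difference of principal cell genes between WT1 and the mean of the other arrays was -0.42, and 11 of 18 were lowest on WT1, against 26.0% of all genes.

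Intercalated cell genes were highest on WT3. The 19 genes present on all arrays were all at their highest on WT3, against 30.9% of all genes. A 2-fold range was seen for 14 of 19, against 10.1% of all genes. Their median log2 difference between WT3 and the mean of the other arrays was 0.84. Foxi1, the transcription factor that specifies intercalated cells, had 1609, 3346, 4008 and 3285. Rhcg, an ammonia transporter, had 7958, 10654, 16164 and 9097. Atp6v0a4, a proton pump subunit, had 2990, 2093, 4522 and 2209.5. WT3 led in each case, and the lowest array differed between the genes. Bsnd, the barttin subunit of renal chloride channels, which the thick ascending limb also uses, had 6614, 5570, 13190 and 5462.

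The 4 samples in Cy5 differed more than the 4 readings of one RNA in Cy3, a contrast in which sample and dye cannot be told apart. Over the 13076 genes present in both dyes, the median SD over the arrays was 0.152 (log2) in Cy5, for 4 samples, and 0.0706 in Cy3, for WT3 RNA read 4 times. The Cy5 SD was the larger for 10501 genes (80.3%). A 2-fold range was reached by 1325 genes (10.1%) in Cy5 and by 189 in Cy3, and a 4-fold range by 157 and 12. Of the 1325, 1051 had a Cy3 range under 0.5. The count of 1325 was 806 without WT4 and 611 as loess-normalised log2 ratios to Cy3. The Cy3 count of 189 was 51 without WT1. The labels do not say whether the Cy3 RNA was labelled once for all arrays, so labelling error may be missing from the Cy3 spread.

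**Figure D3:**
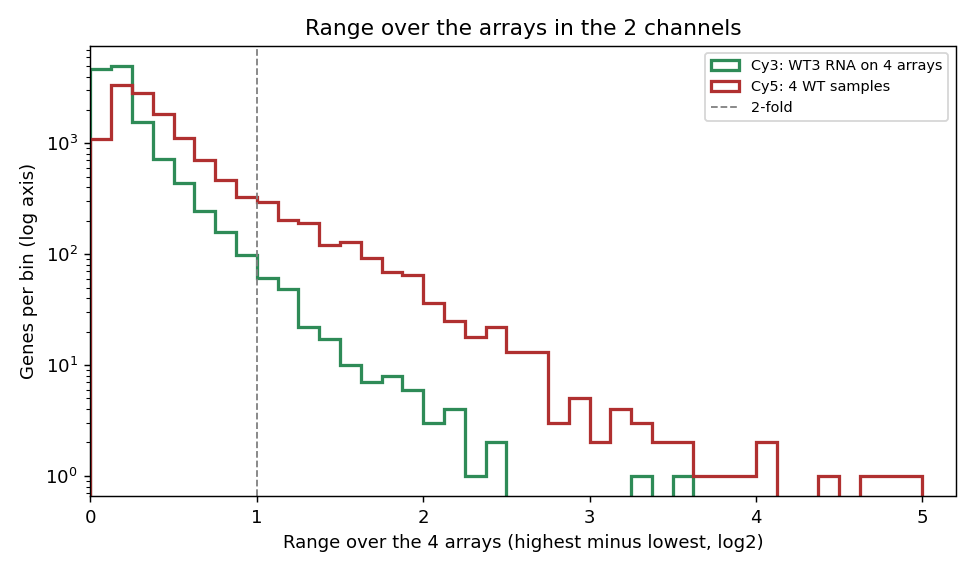
Number of genes (log axis) by range over the 4 arrays in log2 units, for Cy5 (4 WT samples) and Cy3 (WT3 RNA on every array), over 13076 genes. The Cy5 curve extends to a range of 5.00, and 1325 genes reach the 2-fold line in Cy5 against 189 in Cy3. The median range was 0.338 in Cy5 and 0.157 in Cy3.

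The array of WT3 held WT3 RNA in both dyes and gives the error of a ratio. Its log2 ratio of Cy5 to Cy3 had an SD of 0.305 over 13076 genes, and 53 genes (0.405%) were 2-fold from the array's centre. On WT1, WT2 and WT4 the SDs were 0.404, 0.404 and 0.435 and the counts were 361, 304 and 388, so each exceeded the self-hybridised array. The SDs differed from that array far less than the counts did.

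Differences between the WT samples were then described list by list, by the members' median log2 difference between 1 array and the mean of the other 3. Over all 14003 genes present on every array by their brightest probe this median lay between -0.02 and 0.02 on every array. For the housekeeping, ligand and receptor lists it lay between -0.07 and 0.06, and for the cell cycle list between -0.20 on WT3 and 0.15 on WT4. Of 20 housekeeping and 23 cell cycle genes, 0 had a 2-fold range, against 10.1% of all genes. Their median log2 ranges were 0.213 and 0.449, against 0.338 for all genes. For the counts that follow, 19.0% of all genes were highest on WT1, 22.3% on WT2, 30.9% on WT3 and 27.8% on WT4, and 26.0%, 24.6%, 23.1% and 26.3% were lowest there. The lists raised most on 1 array were urothelium, proximal tubule and macrophage on WT1, nephron progenitor and immediate early genes on WT2, loop of Henle, intercalated cell and erythroid genes on WT3, and endothelium and interferon response on WT4. The lowest medians were those of stroma, urothelium and progenitors on WT3 and of proximal tubule on WT4. In bulk RNA, fewer cells of a type and less RNA per cell cannot be told apart.

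**Figure D4:**
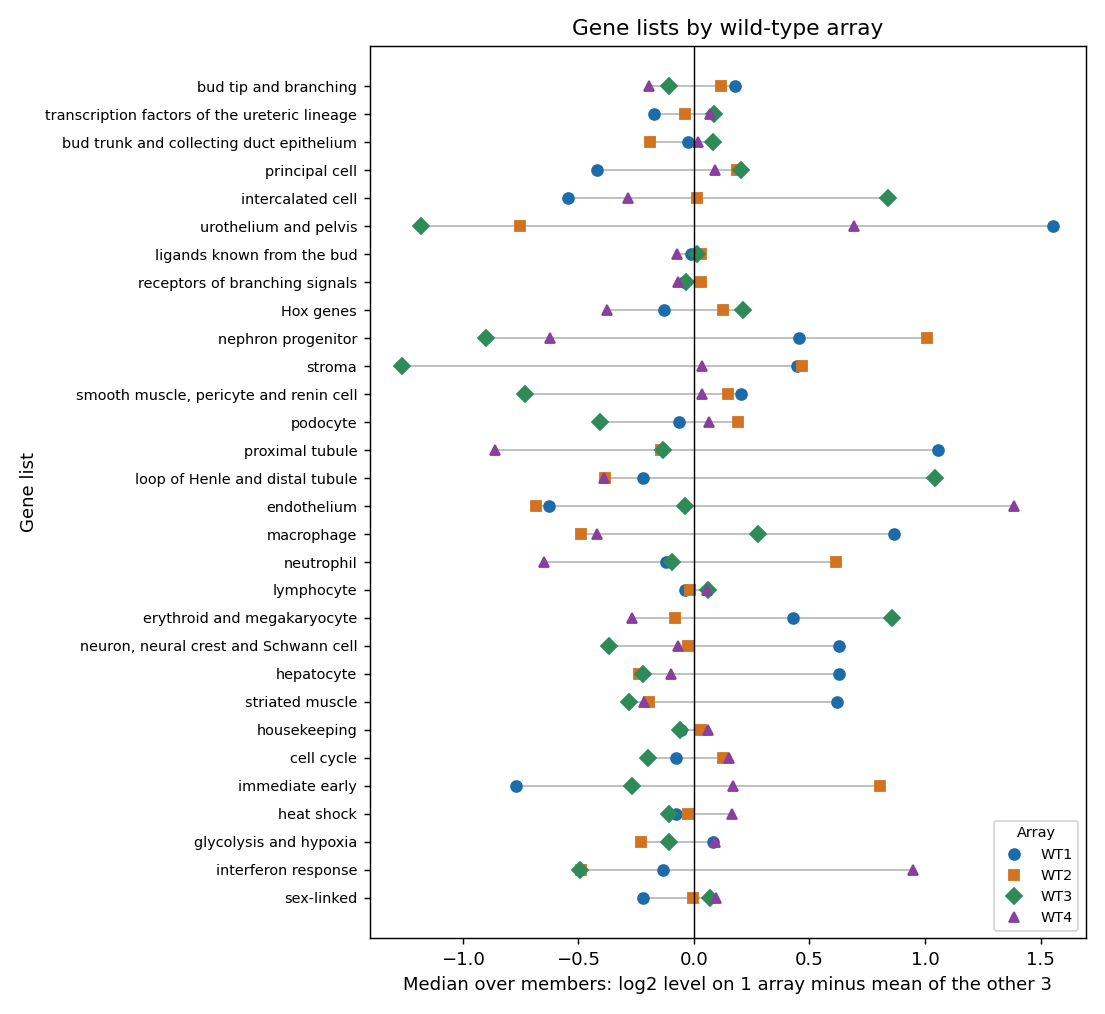
For each of 30 lists with at least 5 genes on all arrays, the median over its genes of the log2 level on 1 array minus the mean of the other 3 (horizontal axis), with 1 symbol per array. Symbols of the receptor, ligand and housekeeping lists bunch near 0, and those of the tip list run from -0.195 on WT4 to 0.180 on WT1. Urothelium reaches 1.55 on WT1, endothelium 1.39 on WT4 and stroma -1.26 on WT3.

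Urothelial genes had the widest median range of the lists, 2.70 (log2) over the 14 genes present in both dyes. The urothelium lines the renal pelvis and ureter, which derive their lining from the ureteric bud. Of 18 measured genes 16 were present on all arrays (67% of all named genes), and 13 of 14 had a 2-fold range (10.1% of all genes). Highest on WT1 were 11 of 16 (19.0% of all genes), with a median log2 difference of 1.55. Upk3a, a uroplakin of the luminal plaque, had 35136, 3564, 8030 and 21340. Its 9.86-fold range compares with a log2 range of 0.07 in Cy3. Upk1a had 28771, 2619, 8474 and 13606, and Upk2 had 8116, 765, 2081 and 4426. All 3 uroplakins followed the order WT1, WT4, WT3, WT2. The Cy3 levels of the Upk2 probe, 480, 272, 302 and 341, had the same order over a log2 range of 0.82. Krt5, a keratin of the basal layer, had another order, with 10244, 7490, 1409 and 7590 and WT3 lowest. Its Cy3 levels, 401, 339, 229 and 312, were also lowest on WT3, over a log2 range of 0.81. Psca, a surface protein of urothelium, had 2290, 90.8, 641 and 1021. Krt20, a keratin of the superficial cells, had 2639, 806, 381 and 1527. The list's summed level was 130242, 31597, 35016 and 77907.

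Proximal tubule genes, which belong to the nephron and not to the bud, were all present (67% of all named genes) and mostly highest on WT1. Of 22 genes 20 were highest on WT1 (19.0% of all genes) and 17 lowest on WT4 (26.3% of all genes), and the median log2 difference on WT1 was 1.06. Slc34a1, the phosphate transporter of the brush border, had 13825, 5431, 5175 and 3458. Lrp2, the endocytic receptor megalin, had 11536, 6190, 4046 and 5029. WT1 exceeded every other array for both. The list's sum was 201069, 107874, 104462 and 71853. WT1 was also the brightest array before scaling. Without scaling, the median log2 difference on WT1 was 1.38 for proximal tubule and 1.88 for urothelium.

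Other lists were raised on WT1 as well. The median log2 difference on WT1 was 0.63 for the list of neurons, neural crest and Schwann cells, 0.63 for hepatocytes and 0.62 for striated muscle, over 10, 10 and 5 genes. Th, the first enzyme of catecholamine synthesis, had 582, 102, 127 and 99.2. Dbh, a later enzyme of that pathway, was chosen after its values were seen and was well above background on WT1 only, with 500.3, -1.14, 7.92 and -8.54. Their part in the other WT1 results was not tested.

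Nephron progenitor genes were highest on WT2. Progenitors cap the bud tips and give rise to the nephrons. Of 18 genes present on all arrays, 17 were highest on WT2 (22.3% of all genes), and the median log2 difference was 1.01. Six2, which keeps progenitors undifferentiated, had 7055, 8740, 1560 and 1661, with WT1 and WT2 far above WT3 and WT4. Cited1, another progenitor gene, had 15018, 18347, 6990 and 5163, and Gdnf, the ligand of Ret, had 1087, 1287, 207 and 388. Both showed the same division of the arrays. Eya1, a transcriptional co-activator of progenitors, was level at 15781, 15930, 15030 and 17238.

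Stromal genes were lowest on WT3. Of 17 genes present on all arrays by their brightest probe, 15 were lowest on WT3 (23.1% of all genes). Their median log2 difference was -1.26, which was -0.66 as loess-normalised ratios. By any probe 18 genes were present on all arrays, and 16 of these were lowest on WT3. Col1a1, a chain of type I collagen, had 5125, 4532, 1636 and 3446. Penk, an opioid precursor of renal stroma, had 2234, 3369, 891 and 1888. Foxd1, the transcription factor of cortical stroma, was present on 3 arrays, with 74.7, 64.0, 21.3 and 53.9, and missed on WT3. Tbx18, a gene of ureteric mesenchyme, was on no array. Vim, vimentin, had 4965, 4055, 3567 and 9229 and was highest on WT4.

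Loop of Henle and distal tubule genes were highest on WT3. Of 20 genes 19 were highest there (30.9% of all genes), with a median log2 difference of 1.04, and the summed level was 158707, 164719, 377245 and 155151. Umod, uromodulin of the thick ascending limb, had 20712, 27193, 61177 and 17451. Slc12a1, the sodium, potassium and chloride transporter of that segment, had 2871, 2426, 7136 and 2206. Slc12a3, the thiazide-sensitive transporter of the distal convoluted tubule, had 3167, 1535, 4420 and 2313. WT3 was highest for each. Kng1, a kininogen, had 34229, 32477, 82789 and 26217 at one probe, while its other probe had a mean level of 80.3.

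Endothelial genes were highest on WT4. All 20 were present (67% of all named genes), and 19 of 20 had a 2-fold range (10.1% of all genes). Highest on WT4 were 19 (27.8% of all genes), with a median log2 difference of 1.39. Plvap, a protein of fenestrated endothelium, had 7302, 8734, 11903 and 27476. Cldn5, an endothelial claudin, had 5985, 8486, 8424 and 15108. WT4 was highest for both. Kdr, a VEGF receptor, had 2595, 2348, 3462 and 6416 at its brightest probe and 2939, 3160, 3299 and 3648 at the other. Both Kdr probes were highest on WT4, but the second differed little over the arrays. Vwf, von Willebrand factor, did not follow them, with 934, 141, 307 and 421 and WT1 highest.

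**Figure D5:**
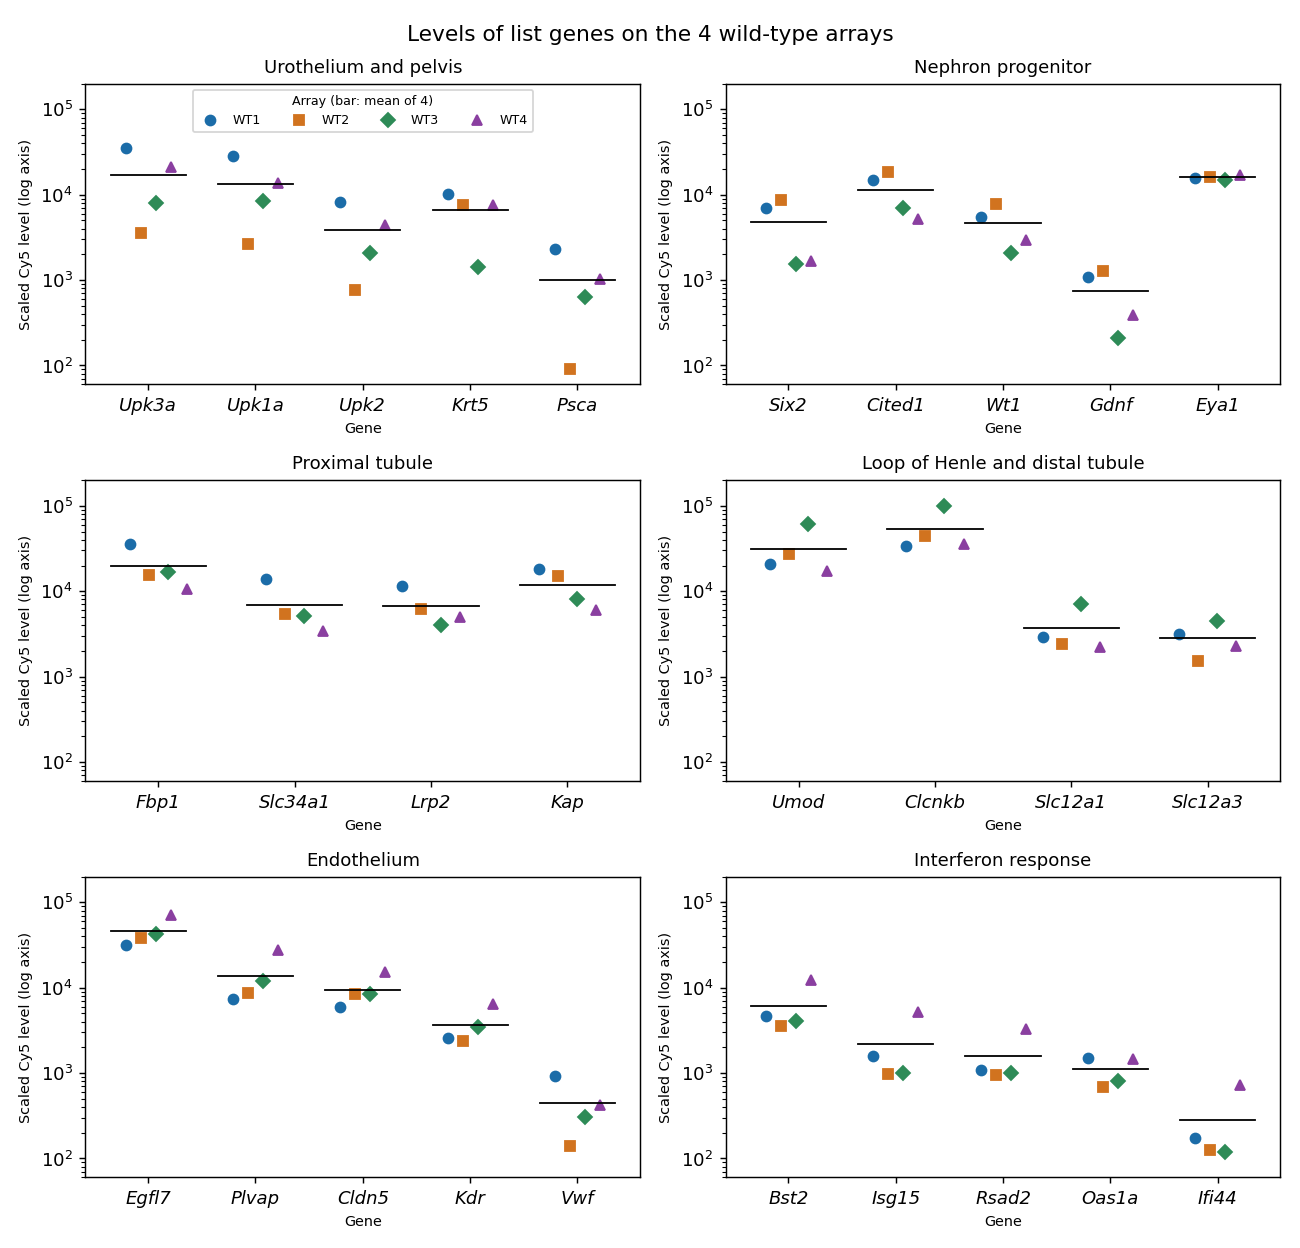
Scaled Cy5 levels (log axis) on the 4 WT arrays of 4 or 5 genes from each of 6 lists, with 1 symbol per array and a bar at the mean. WT1 is highest for the uroplakins and the proximal tubule genes, WT2 for Six2, WT3 for Umod and its neighbours, and WT4 for Plvap and Bst2.

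Genes of blood and immune cells were present to different degrees. All 19 macrophage genes were present (67% of all named genes). Of the 19, 15 were highest on WT1 (19.0% of all genes), with a median log2 difference of 0.87. Csf1r, the receptor of a macrophage growth factor, had 4987, 2534, 4154 and 2545, and C1qb, a complement chain, had 1122, 269, 456 and 397. Of 14 lymphocyte genes 6 were present (67% of all named genes) and 7 were on no array (26.9%), among them the T cell gene Cd3g. The T cell gene Cd4 had a mean level of 796 at one probe and 10.2, on no array, at its other. S100a9, a neutrophil protein, had 4674, 8499, 4607 and 3348, highest on WT2. Mmp9, a neutrophil protease, was on no array. Elane, neutrophil elastase, had 1752, 199, 284 and 245, but the Cy3 level of its probe was likewise higher on WT1, with 400 against 32.9 to 44.5 on the other arrays. The spot was thus bright on WT1 also in the dye that carried WT3 RNA.

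Red cell genes were among those with the widest ranges. Hba-a1, an alpha globin, had 102734, 7297, 118975 and 48963, so WT2 was 16.3-fold below WT3. Alas2, the first enzyme of heme synthesis in red cells, had 1516, 138, 2309 and 651 in the same order of arrays. Hbb-bs, an adult beta globin, had 5546, 247, 7873 and 2954, a log2 range of 5.00. Without WT2 the log2 range was 1.41 for Hbb-bs and 1.28 for Hba-a1. The beta globin genes Hbb-bs, Hbb-bt and Hbb-b2 are near-identical, and their probes may share signal. The embryonic globins Hbb-bh1 and Hbb-y were on no array.

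Among genes with a steady Cy3 signal, the 20 widest ranges lay between 2.86 and 5.00 (log2). Of these 20 genes, 10 were highest on WT1, 9 on WT3 and 1 on WT2, and 16 were lowest on WT2. They included the globins and Alas2, the uroplakins Upk1a and Upk3a, Psca and Cyp24a1, the enzyme that degrades vitamin D, with 1038, 107.4, 521 and 435. Cyp4a14, a fatty acid hydroxylase, had 189, 544, 632 and 22.9. Rec8, a cohesin subunit of meiosis, was the one gene highest on WT2, with 2695, 10227, 1316 and 5994.

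Immediate early genes, which are transcribed within minutes of a stimulus, were lowest on WT1 and highest on WT2. Of 21 genes present on all arrays, 19 were highest on WT2 (22.3% of all genes) and 19 lowest on WT1 (26.0%), and the median log2 difference on WT2 was 0.81. Fos had 5569, 16130, 8277 and 11615, and Jun, its partner in the AP-1 factor, had 68002, 139959, 91545 and 99132. Nr4a1, a nuclear receptor, had 7118, 29954, 11723 and 13185, and Atf3, a stress-induced factor, had 1279, 6675, 1572 and 4169. All 4 genes followed the order WT2, WT4, WT3, WT1. Egr3 was on no array. The heat shock list did not move with them, with a median log2 difference of -0.03 on WT2 and -0.08 on WT1. Past a 2-fold range were 0 of its 11 genes, against 10.1% of all genes.

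Interferon-response genes were highest on WT4. Of 18 measured genes 16 were present on all arrays (67% of all named genes). Highest on WT4 were 12 of 16 (27.8% of all genes), with a median log2 difference of 0.95, or 0.62 as loess-normalised ratios. Isg15, a ubiquitin-like protein, had 1596, 967, 996 and 5169. Bst2, which tethers budding virus, had 4668, 3577, 4128 and 12182. Rsad2, the antiviral enzyme viperin, had 1087, 954, 994 and 3253. WT4 was more than 2-fold above the next array for each of these 3. Ifi44 had 176, 127, 120.3 and 722. Oas1a, a sensor of double-stranded RNA, had 1513, 687, 813 and 1448, so WT1 and WT4 were alike. Ifit1 was present on 2 arrays only, with its highest level, 85.4, on WT4. Markers of endothelium were also highest on WT4, and their part in the interferon result was not tested.

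Promoters of the interferon list are shown because 12 of its 16 present genes were highest on WT4 and part of the list holds a known element. The interferon-stimulated response element is bound by complexes of STAT and IRF proteins and was searched as TTTC, any 2 bases and TTTC again, which reads as GAAA, any 2 bases and GAAA on the other strand. Of the list's 18 genes, 15 had a promoter in the RefSeq table of the build GRCm38.p6, and 8 of them held the element in the 250 bases before the start. It occurred in 3.46% of 16552 array genes with a promoter and in 2.98% of 32851 promoters of all genes. The 5 below were taken from the 8 genes with a match, so they do not show how the element goes with the levels on WT4. Of the 5, Oas1a was highest on WT1 and Ifit1 was present on 2 arrays only. Ifi44, which was raised on WT4, was not among the 8. The 5 are written 5′ to 3′ on the strand of the gene, with each match in capitals. A match is a string of letters and not evidence of binding, and overlapping matches run together.
Isg15, chr4:156200819-156201068, minus strand: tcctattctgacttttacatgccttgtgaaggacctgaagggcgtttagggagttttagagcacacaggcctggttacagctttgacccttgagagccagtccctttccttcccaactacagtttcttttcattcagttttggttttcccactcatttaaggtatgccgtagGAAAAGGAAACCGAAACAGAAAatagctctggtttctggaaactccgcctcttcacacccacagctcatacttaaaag
Bst2, chr8:71537473-71537722, minus strand: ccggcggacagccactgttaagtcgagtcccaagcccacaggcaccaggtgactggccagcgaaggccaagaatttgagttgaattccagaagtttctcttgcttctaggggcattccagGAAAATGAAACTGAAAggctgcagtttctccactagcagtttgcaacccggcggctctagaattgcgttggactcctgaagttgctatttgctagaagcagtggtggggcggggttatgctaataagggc
Rsad2, chr12:26456453-26456702, minus strand: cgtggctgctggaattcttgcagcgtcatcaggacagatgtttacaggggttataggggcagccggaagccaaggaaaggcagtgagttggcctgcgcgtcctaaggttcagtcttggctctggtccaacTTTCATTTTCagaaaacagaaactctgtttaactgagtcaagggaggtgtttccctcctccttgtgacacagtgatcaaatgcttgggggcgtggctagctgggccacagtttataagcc
Oas1a, chr5:120907526-120907775, minus strand: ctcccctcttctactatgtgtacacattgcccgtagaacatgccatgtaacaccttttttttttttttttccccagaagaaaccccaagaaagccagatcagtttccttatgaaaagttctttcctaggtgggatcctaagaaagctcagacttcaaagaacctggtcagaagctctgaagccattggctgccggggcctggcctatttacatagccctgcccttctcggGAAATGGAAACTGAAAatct
Ifit1, chr19:34640639-34640888, plus strand: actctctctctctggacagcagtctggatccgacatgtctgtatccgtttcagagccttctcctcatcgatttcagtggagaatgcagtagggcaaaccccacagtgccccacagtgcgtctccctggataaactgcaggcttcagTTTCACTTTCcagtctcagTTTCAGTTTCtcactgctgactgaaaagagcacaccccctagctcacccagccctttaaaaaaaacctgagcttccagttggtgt
The match of Oas1a lies among the last bases before the start, and Ifit1 has 2 separate matches. In the immediate early list, 0 of 18 genes with a promoter held this element, which is near the share of 3.46% over array genes.

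Genes of both sexes' chromosomes were read on every array. Xist, the RNA of the inactive X chromosome, had 286, 370.1, 711 and 275. Ddx3y, a helicase gene of the Y chromosome, had 643, 617, 248 and 632. WT3 had the highest Xist and the lowest Ddx3y. Sry, which is active in the fetal gonad, was on no array.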

How the data were processed

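Version 10.7.3.1 of Agilent Feature Extraction is named in the submitters' processing notes as the program with which the authors read the 2-colour arrays. Spot intensity values were taken from the deposited files, whose annotation is for mm9 per the file headers, and all arrays lay on 1 slide with the WT arrays in one row. Per the labels, every array carried WT replicate 3 in Cy3 and no dye was swapped. Of the 8 arrays the 4 WT arrays were used.

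Median local background was subtracted from the median signal, spots marked as non-uniform or as population outliers were left out, spots of a probe were averaged, and arrays were scaled to a common 75th percentile. Of 55681 probes 27509 were named, by matching 21717 of 37850 systematic names without version to RefSeq (GRCm38.p6). This gave 20887 genes. The arrays on which the scanner software marked a probe as well above background were counted per probe. A gene took the count of its probe marked on the most arrays, so presence on all arrays needed 1 probe marked on all 4. Its level is that of its brightest probe, and genes with several probes can disagree. Ranges used log2 levels with a floor of 1 array unit, over genes present in both dyes. No test between groups was run, so no p-values are given, and 4 arrays limit the precision. Named genes are the 8 markers, from each of 33 lists the 4 brightest present genes, absent genes (up to 4) and genes on 1 to 3 arrays (if at most 3), all list genes past a 2-fold range, and the 20 brightest and 20 most variable genes; some of these are not reported here. The members, lists and naming rule were chosen with earlier results of these data known, and the lists singled out in the text were picked after their values were seen. Python 3.11.15 with numpy 2.4.6, pandas 2.3.3 and matplotlib 3.10.9 was used, and limma 3.58.1 under R 4.3.3 for normexp (offset 50) and loess. The range and detection steps were tested on simulated data. Alternatives were other detection rules, the Cy3 channel, no background subtraction, the scanner's processed signal, no or quantile scaling, all probes averaged, loess ratios, the brightest 25% of genes and each array left out in turn.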

Additional observations from a re-analysis of the deposited data

Results flagged for a closer look

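A sample was marked where its gap to the nearest of the other 3 WT arrays, as a share of the whole range, exceeded Dixon's 95% critical value for 4 values. Of 115 list sums and printed genes tested, 19 (16.5%) were so marked, where chance marks about 5%. The genes are not independent of each other, and many were named for a wide range.

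Among list sums, the loop of Henle and distal tubule list stood apart on WT3 (377245, others 155151 to 164719). The interferon list stood apart on WT4 (39440, others 14910 to 18230). The heat shock list was low on WT3 (128929, others 139081 to 140452) and the sex-linked list low on WT1 (18897, others 20297 to 20505), both by small amounts. The germ cell sum of 148.6 on WT1, with others from 123 to 127, is over genes of low level. Of these, 1 was present on all arrays and 3 on 1 to 3 arrays. The gene present on all arrays, Gdf9, had 36.9, 45.7, 26.7 and 68.8 and was highest on WT4.

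On WT1 the levels of Elane (1752), Hoxb8 (10274), Th (582) and Dbh (500.3) stood apart upward. The Cy3 level of the Elane probe, 400 on WT1 against 32.9 to 44.5, was apart as well. On WT3, Bsnd (13190), Hoxd8 (7996), Kng1 (82789) and Slc12a1 (7136) stood apart upward and Ddx3y (248) downward. On WT4, Bst2 (12182), Gata3 (11695), Ifi44 (722), Isg15 (5169) and Rsad2 (3253) stood apart upward.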

How the results depend on the processing

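No paired analysis was possible because no groups were compared. Of the values of the main results under other settings, 158 stayed within the limits set for them and 20 moved. These 20 all concern the spread over arrays. The limits were wide, so staying within them does not mean that a value was unchanged. For a list median the limit was the SD of the list's medians over the arrays. The stroma median, -1.26 with an SD of 0.61, counted as unmoved at -0.66 as loess ratios. The 5609 genes on no array counted as unmoved at 3812 by the negative-control rule. The median SD of Cy5, 0.152, was 0.135 without background subtraction, 0.236 without scaling, 0.127 as loess ratios, 0.116 in the brightest 25% of genes, and 0.132 to 0.149 with 1 array left out. The 1325 genes with a 2-fold Cy5 range became 853 without background subtraction, 611 as loess ratios, 268 in the brightest 25% and 806 to 1040 with 1 array left out. The median SD of Cy3, 0.0706, was 0.0628 without background subtraction, 0.0901 without scaling, 0.0665 with quantile normalisation, 0.0496 in the brightest 25% and 0.0637 to 0.0685 with 1 array left out. The 189 genes with a 2-fold Cy3 range became 4 without background subtraction, 74 with quantile normalisation, 2 in the brightest 25% and 51 to 156 with 1 array left out. Smaller counts are partly due to construction, since the brightest 25% are fewer genes and 3 arrays have less range than 4; other causes were not tested.

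For 10 lists, each on 1 array (urothelium, proximal tubule and macrophage on WT1, progenitor and immediate early on WT2, loop of Henle, intercalated cell and stroma on WT3, endothelium and interferon on WT4), the median kept its sign under every setting run, among them genes in 1 list only, chosen after seeing the data. Other list medians were not recomputed. Leaving out the array a list was highest or lowest on gives no value. Of 790 ranges of single genes, 712 stayed and 78 moved, 70 of them downward. The limit here was the gene's own SD over the arrays. Levels near the negative controls, such as those of Shh and Foxd1, are limited by signal over background. Detection depends on the probe, and a gene on no array is not shown to be unexpressed.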
